A study of Mus musculus with 8 samples.

Results

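The Sh3pxd2a locus was taken as the H3K27ac peaks that overlap a window on mouse chromosome 19 from 47.28 to 47.62 Mb (mm9), which holds the gene at about 47.33 to 47.54 Mb. It comprised 19 of the 22731 peaks in the authors' table. The locus was selected on its H3K27ac counts in these libraries: a long stretch of neighbouring peaks there had more signal in Gata6 knockout than in control libraries. All differences between the groups within the window are therefore descriptions of the same libraries that selected it. Calls from a test over the whole table are used below only to label peaks and to count them, and they are no independent evidence of a difference.

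H3K27ac was profiled by CUT&RUN, in which an antibody guides a nuclease to cut out DNA at a chromatin mark, from 500000 dissociated cells of mouse colon cancer organoids per library, per the labels. The groups were Gata6KO_AKP organoids and, as control, AKP organoids, with 3 libraries each, and the labels give C57Bl6 as the recipient mice for both. AKP, carried by both groups, is not spelled out in the labels. The labels say neither how Gata6 was disrupted, nor whether each line is 1 clone, nor whether replicates were separate cultures, so the spread between libraries may be technical. The Gata6 locus was not analysed here as a check of the labels, and neither were markers of colon epithelium, since no mm9 annotation was used here.

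Sh3pxd2a encodes Tks5, a scaffold protein with a lipid-binding PX domain and several SH3 domains. It is a substrate of the Src kinase and is needed for invadopodia, the actin-rich protrusions with which invasive cancer cells digest extracellular matrix. Shorter forms that lack the PX domain arise from internal promoters and have been described in mouse lung adenocarcinoma. H3K27ac marks active promoters and enhancers, and neither RNA nor protein of the gene was measured in these libraries.

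The gene is transcribed towards lower coordinates, so its promoter lies near 47.54 Mb and its end near 47.33 Mb. The peaks are numbered here in that direction, from peak 1, upstream of the gene, to peak 19, beyond its end. In the RefSeq gene order of GRCm38.p6, Stn1 and then Slk follow on the promoter side, and Neurl1a lies on the side of the gene end. The same order places Mir6995 and the long non-coding RNA genes Gm29834, Gm36885 and Gm52384 inside Sh3pxd2a. Which peaks fall in which of these genes was not determined, because that table describes another build.

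Across the window, H3K27ac was higher in Gata6 knockout organoids. The 19 peaks together held 965, 946 and 948 CPM in knockout replicates 1 to 3, against 646, 630 and 637 CPM in control replicates 1 to 3, where CPM are counts scaled to 1000000 reads in peaks after TMM adjustment. The lowest knockout sum was 1.46 times the highest control sum, so the groups did not overlap. The means were 953 ± 10.4 CPM in knockout and 638 ± 8.36 CPM in control libraries (SD, n = 3 each), a 1.49-fold difference. The other 655 peaks of chromosome 19 summed to 27401 ± 20.4 CPM in knockout and 27407 ± 362 CPM in control libraries. Gains and losses cancel in such a sum, so it does not show that single peaks were unchanged. The log2 fold changes (knockout over control) of those 655 peaks ran from -1.34 to 1.43. The locus took 3.34% to 3.40% of the reads in chromosome 19 peaks in knockout libraries and 2.24% to 2.33% in control libraries.

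The higher level was found mainly in the promoter-side and middle parts of the gene and not evenly over the window. All 19 peaks passed edgeR's filter on low counts, and edgeR's quasi-likelihood test over the whole table, with Benjamini-Hochberg adjustment at 0.05, called 13 of them higher in knockout libraries, against 11.6% of all peaks. It called 1 of them lower, against 10.2% of all peaks, and left 5 uncalled, while 21.8% of all peaks were called in either direction. Because these calls come from the contrast that selected the window, nothing is read from the excess. The median log2 fold change was 0.81 over the 19 peaks and -0.01 over all peaks.

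**Figure D1:**
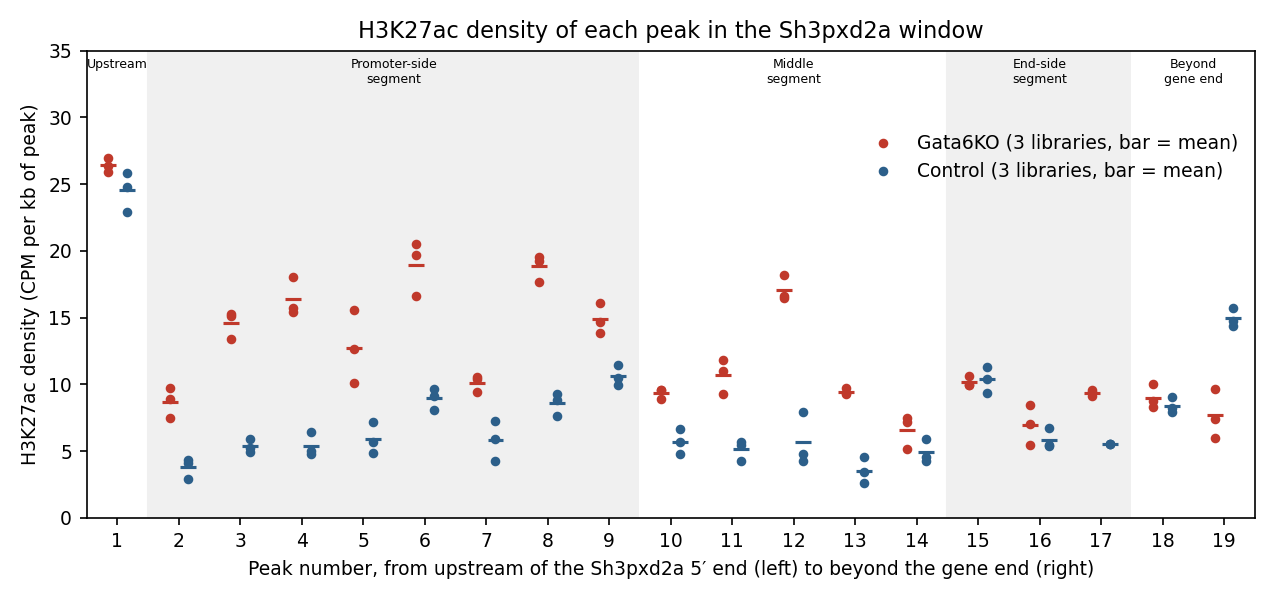
H3K27ac density (CPM per kb of peak width, linear axis) of the 19 peaks in order from upstream of Sh3pxd2a to beyond its end, with a point per library, Gata6KO left of control, and a bar at each mean. Peaks 2 to 13 lie higher in all 3 knockout libraries, peak 17 stands alone in the end-side segment, and peak 19 lies lower in the knockout.

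Peaks 2 to 13 were consecutive and were all among the 13 called higher. They spanned 83685 bp from 47446645 to 47530329 and covered 50.8% of that span. Within them the gaps between peaks were 161 to 9988 bp, whereas 50852 bp separated peak 2 from peak 1 on the upstream side. That wide gap holds the 5′ end of the gene: the near edge of peak 2 lay 9.67 kb inside a 5′ end that is given only to the nearest 10 kb. No peak of the table as analysed here covered the 5′ end at that precision. At the other side, peak 14 followed peak 13 after 7178 bp, and a gap of 44979 bp lay beyond peak 14.

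Nearest the promoter, peaks 2, 3 and 4 formed a group in which signal was low in control libraries. Peak 2, from 47527686 to 47530329, held 25.8, 23.6 and 19.7 CPM in the 3 knockout libraries, against 7.65, 10.9 and 11.5 CPM in the 3 control libraries. Peak 3, from 47524649 to 47527424, held 42.5, 42.1 and 37.2 CPM in knockout and 14.6, 16.4 and 13.6 CPM in control libraries. Peak 4, from 47519611 to 47521712, held 38.0, 33.0 and 32.4 CPM in knockout and 13.6, 10.5 and 10.0 CPM in control libraries. In each of these peaks every knockout library lay above every control library. For peak 4 the mean level was 34.5 ± 3.05 CPM in knockout and 11.4 ± 1.92 CPM in control libraries (SD, n = 3 each), and its log2 fold change of 1.60 ± 0.19 (SE) was the highest of the 19. The log2 fold change was 1.45 ± 0.17 for peak 3 and 1.20 ± 0.24 for peak 2.

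The widest peaks of the promoter-side segment, which also held the most signal, lay further in, at peaks 8 and 9. Peak 8, 5623 bp wide from 47486214 to 47491836, held 110, 99.4 and 108 CPM in knockout libraries, against 42.8, 52.2 and 49.6 CPM in control libraries. The groups lay well apart, and this peak alone carried 18.3% of the CPM added over the window (log2 fold change 1.14 ± 0.11, SE). Peak 9, 8005 bp wide from 47476138 to 47484142, held 129, 111 and 118 CPM in knockout libraries, against 91.8, 79.8 and 83.6 CPM in control libraries. It held the most CPM of the 12 consecutive peaks in control libraries and was also the one with the smallest log2 fold change, 0.49 ± 0.09 (SE). Its lowest knockout library was 1.21 times its highest control library, the narrowest separation among the 12.

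A pair of peaks in the middle segment differed between the groups by about as much as those nearest the promoter. Peak 12, from 47452525 to 47454972, held 40.4, 40.6 and 44.6 CPM in knockout libraries, against 19.5, 10.5 and 11.7 CPM in control libraries. Control replicate 1 was the highest of its group there, and the knockout libraries were all still at least 2.07 times that library. Peak 13, from 47446645 to 47450760, held 40.0, 38.1 and 38.5 CPM in knockout libraries, against 10.8, 14.0 and 18.6 CPM in control libraries. The knockout libraries agree closely at this peak, while the control libraries spread widely. The log2 fold changes were 1.59 ± 0.17 for peak 12 and 1.41 ± 0.17 for peak 13 (SE).

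The other 5 peaks of the stretch, peaks 5, 6, 7, 10 and 11, averaged 19.1 to 60.3 CPM in knockout libraries and 10.9 to 28.5 CPM in control libraries. Their log2 fold changes ran from 0.72 to 1.11, with standard errors of 0.14 to 0.26, and each had its 3 knockout libraries above its 3 control libraries. Peaks 6 and 7 lay 435 bp apart, with log2 fold changes of 1.08 ± 0.14 and 0.81 ± 0.26. Over the whole window, the 3 knockout libraries lay above the 3 control libraries at 14 of the 19 peaks, against 17.5% of all peaks, and below them at 1, against 16.2% of all peaks. The lowest knockout library was at least 2 times the highest control library at 4 of the 19, namely peaks 3, 4, 12 and 13, against 0.752% of all peaks.

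**Figure D2:**
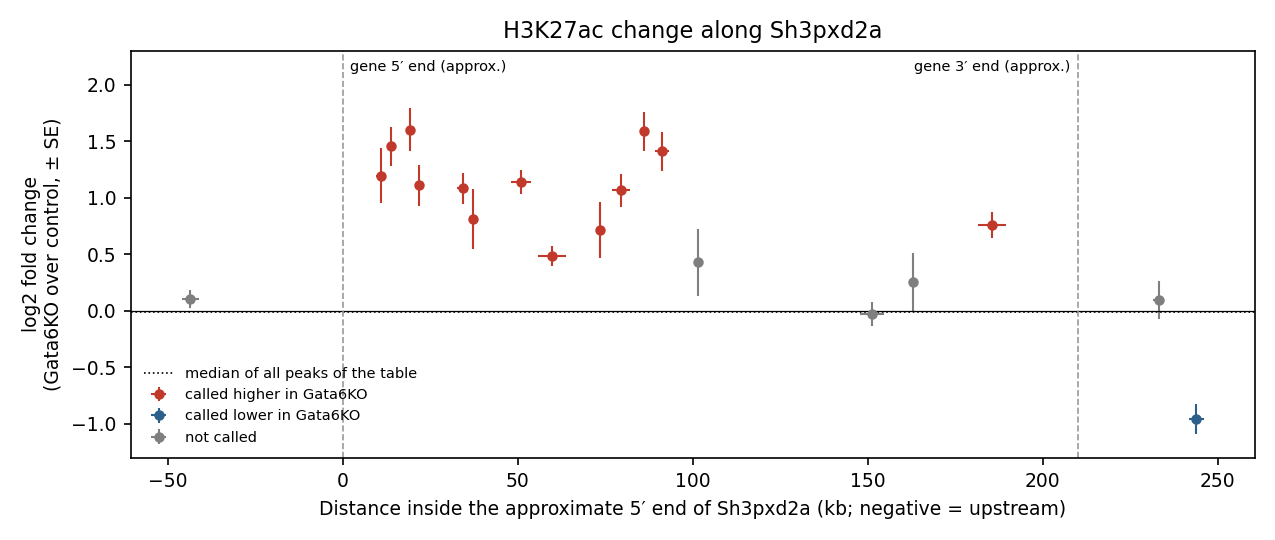
Log2 fold change of each peak (Gata6KO over control, vertical lines ± SE, horizontal lines the peak width) against its distance inside the approximate 5′ end of Sh3pxd2a in kb, with the gene ends dashed and the median of all peaks (-0.01) dotted. The 12 consecutive higher peaks lie between 11.0 and 91.3 kb inside the gene, and values near 0 are found on both sides of them.

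Beyond the stretch, the same gene held peaks of quite different behaviour. Peak 14 had a log2 fold change of 0.43 ± 0.30 (SE), and its groups overlapped. That value is close to the 0.49 ± 0.09 of peak 9, which was called, so the end of the stretch at peak 13 marks only where calls stopped. Peak 15, 7075 bp wide from 47385175 to 47392249, held 70.5, 70.4 and 75.0 CPM in knockout libraries, against 66.4, 73.8 and 80.2 CPM in control libraries. The knockout libraries fell inside the control range at this peak, which held the second most CPM in the body of the gene in control libraries, with a log2 fold change of -0.03 ± 0.11. Peak 16 averaged 16.6 ± 3.49 CPM in knockout and 13.9 ± 1.83 CPM in control libraries, and was not called.

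Peak 17 was an isolated higher peak near the end of the gene. It was 8022 bp wide, from 47350358 to 47358379, and held 73.1, 76.5 and 75.7 CPM in knockout libraries, against 44.5, 44.4 and 44.4 CPM in control libraries. Libraries of a group were nearly identical there and the groups did not overlap. The control libraries held 228 to 310 reads at this peak, so agreement this close does not show how reproducible the peak is. Its log2 fold change was 0.76 ± 0.12 (SE), and it was separated from peak 16 by 17516 bp and from peak 18 by 42004 bp.

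Outside the gene, the flanks did not share the higher level. Peak 1, upstream, from 47581182 to 47585901, held 122, 125 and 127 CPM in knockout libraries, against 117, 108 and 122 CPM in control libraries. The lowest knockout and the highest control library were nearly equal, and the log2 fold change was 0.11 ± 0.08 (SE). Peak 18, beyond the gene end, averaged 27.6 ± 2.72 CPM in knockout and 25.8 ± 1.82 CPM in control libraries. Peak 19, from 47293958 to 47298155, went the other way, with 25.1, 31.2 and 40.6 CPM in knockout libraries, against 66.1, 60.4 and 61.9 CPM in control libraries. All its knockout libraries lay below all its control libraries (log2 fold change -0.96 ± 0.13, SE), and its mean was 0.514 times the control mean.

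At the borders of the window, peaks 1 and 19 were the last ones inside. The next peak above it, from 47720878 to 47726223, averaged 50.7 ± 4.53 CPM in knockout and 56.2 ± 7.04 CPM in control libraries, with a log2 fold change of -0.15 ± 0.12 (SE). The next peak below it, from 47200726 to 47206689, averaged 56.1 ± 3.95 CPM in knockout and 72.3 ± 8.47 CPM in control libraries, with a log2 fold change of -0.36 ± 0.11. This peak, beyond peak 19, was also called lower.

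To set the parts of the gene side by side, the peaks were summed in 5 zones: upstream, promoter-side, middle and end-side segments of the gene of equal length (70 kb each), and beyond its end. The 8 peaks of the promoter-side segment held 468, 425 and 414 CPM in the knockout libraries, against 229, 227 and 217 CPM in the control libraries. Every knockout library was at least 1.81 times every control library, and the means differed 1.94-fold (435 ± 28.6 and 224 ± 6.57 CPM, SD, n = 3 each). The middle segment held less signal but differed by slightly more, 2.19-fold, with 169 ± 9.13 CPM in knockout and 77.4 ± 4.44 CPM in control libraries. The end-side segment differed 1.24-fold, with 164 ± 3.26 CPM in knockout and 132 ± 7.06 CPM in control libraries. The means of that zone differed by 31.9 CPM, and peak 17 alone differed by 30.7 CPM, against -1.51 CPM at peak 15 and 2.69 CPM at peak 16. Upstream, the ratio was 1.08, and beyond the gene end it was 0.676, with 59.9 ± 6.47 CPM in knockout and 88.6 ± 4.78 CPM in control libraries. Of the 16 peaks in the body of the gene, 13 were called higher: all 8 in the promoter-side segment, 4 of 5 in the middle segment and 1 of 3 in the end-side segment.

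**Figure D3:**
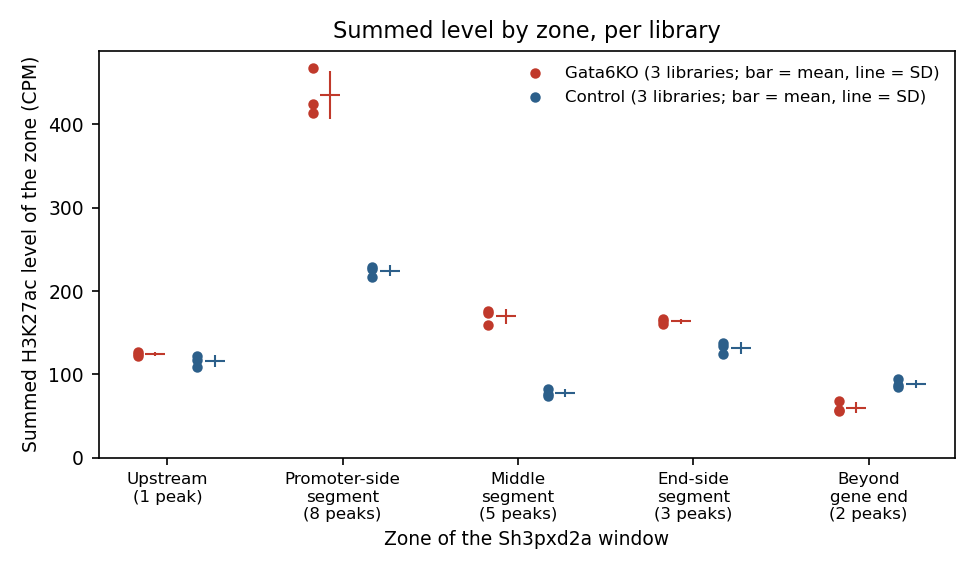
Summed H3K27ac level (CPM) in each of the 5 zones, with a point per library, Gata6KO left of control, and the mean ± SD beside the points. The groups are far apart in the promoter-side and middle segments, apart by less in the end-side segment, nearly equal upstream, and the other way round beyond the gene end.

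The reads were also distributed differently along the window, a comparison that does not depend on how libraries are scaled to one another. The promoter-side segment took 45.7% ± 2.51 of the reads in the 19 peaks in knockout libraries and 35.2% ± 1.03 in control libraries (SD, n = 3 each). The middle segment took 17.8% ± 1.14 in knockout and 12.1% ± 0.575 in control libraries. The shares of the other zones were smaller in the knockout: 13.1% ± 0.390 against 18.2% ± 0.977 upstream, 17.2% ± 0.515 against 20.7% ± 1.32 in the end-side segment, and 6.29% ± 0.717 against 13.9% ± 0.571 beyond the gene end. Since shares sum to 100%, a larger share of 1 zone lowers those of the others. Peaks 2 to 13 together took 61.9% ± 1.70 of the reads in knockout and 45.6% ± 1.34 in control libraries, on 57.3% of the peak length of the window. They held 95.0% of the 315 CPM by which the sums of the groups differed. The gain at peak 17 (9.73% of that difference) and the lower level of peak 19 (-9.67%) nearly cancelled. The rest lay in small parts at the other peaks, the largest at peak 1 (2.83%).

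**Figure D4:**
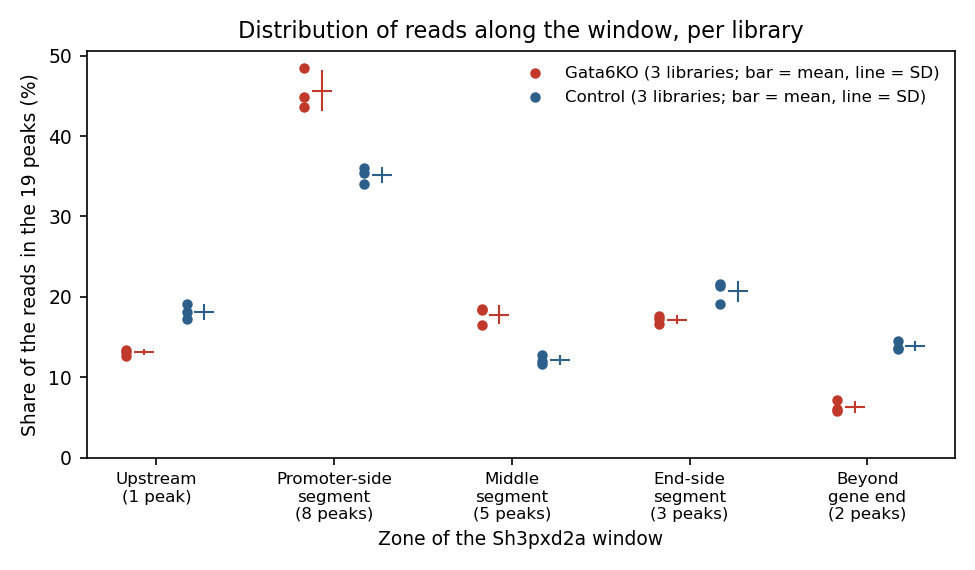
Share of the reads in the 19 peaks (%) that fell in each zone, with a point per library, Gata6KO left of control, and the mean ± SD beside the points. The promoter-side segment takes 43.6% to 48.5% in knockout libraries and 34.0% to 36.0% in control libraries.

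Levels were next compared between peaks per kb of width. In control libraries most of the 12 consecutive peaks were weakly acetylated: 9 of them lay in the lowest 10% of all peaks of the table by control density, and none lay above the median. This was not particular to the stretch, since 12 of all 19 peaks lay in that lowest 10%. Among them were peaks 14, 16 and 17 of the same gene, at percentiles 1.67, 3.86 and 3.01. In knockout libraries none of the 12 lay in the lowest 10% by knockout density, and 7 lay above the median. The 12 were picked for being higher in these knockout libraries, so a rise in rank was built in and is no separate result. Whether peaks this weak in control libraries entered the common peak list only through knockout signal was not determined. Peak 13 had the lowest control density of the window, 3.52 ± 0.956 CPM per kb, and peak 2 followed with 3.78 ± 0.778, a difference within their spread. The densest of the 12 in control libraries was peak 9 with 10.6 ± 0.765 CPM per kb, close to the 10.4 ± 0.973 of peak 15. In knockout libraries the densest of the 12 were peak 6 with 18.9 ± 2.05 and peak 8 with 18.8 ± 1.02 CPM per kb, which did not differ beyond their spread, followed by peak 12 with 17.1 ± 0.959 and peak 4 with 16.4 ± 1.45. Peak 1, upstream, was the densest of the window in both groups, with 26.4 ± 0.539 CPM per kb in knockout and 24.5 ± 1.47 in control libraries.

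Over the 19 peaks of the window the density was more even in the knockout, but hardly so in the body of the gene alone. The coefficient of variation between the 19 peaks was 43.1%, 40.8% and 42.2% in the knockout libraries, against 62.9%, 59.1% and 68.5% in the control libraries. All knockout libraries lay below all control libraries in this measure. Across the 16 peaks in the body of the gene, the log2 fold change tended to be lower further from the promoter (Spearman's rho = -0.609). It did not fall steadily: peaks 12 and 13, at 86.3 and 91.3 kb inside the gene, had 1.59 and 1.41. Peaks 14 to 17, past the stretch, had -0.03 to 0.76. Across the 19 peaks the log2 fold change was larger where control density was lower (rho = -0.602). This relation with control density was also present over all 22731 peaks (rho = -0.429), and both sides of it contain the control reads. These are descriptions over neighbouring peaks that share their libraries, not over independent samples.

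The libraries of a group agreed closely on the total, while knockout replicate 1 differed from the other knockout libraries in where it lay. The window sums varied by 1.09% between knockout libraries and by 1.31% between control libraries (coefficient of variation). Knockout replicate 1 had the highest promoter-side sum, 468 CPM, and the lowest sum of its group in the middle segment, 159 CPM, against 174 and 176 CPM in the other knockout libraries. The reads behind these values numbered 5543, 5218 and 5911 in the window in knockout libraries, against 3716, 3233 and 4449 in control libraries, and the single peaks held 44 to 852 reads per library. Of these counts 84.2% were even numbers, a pattern that counting each mate of a read pair would give, so fewer independent fragments than reads may stand behind a value.

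Among the 11357 peaks off the window with at least a median mean level, 3 had the most similar profile over the 6 libraries, by Euclidean distance between log2 CPM values relative to the control mean. They lay on chromosome 18 from 61111081 to 61115599, at a distance of 0.102 from the window sum, on chromosome 14 from 65306636 to 65309337, at 0.103, and on chromosome 11 from 98251007 to 98257837, at 0.109. Their mean levels were 1.48, 1.53 and 1.48 times higher in knockout than in control libraries, in that order. Since the measure was taken over 2 groups of 3 libraries, likeness means little more than a ratio near that of the window and little spread.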

How the data were processed

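The deposited values are raw counts of reads in each peak, not normalized by the authors, for 1 peak list common to the 6 H3K27ac libraries. The submitters' processing notes name mm9 as the build and, with neither versions nor roles, the tools Bowtie, SEACR, SAMtools, Picard and bedtools. The sources used here give neither the counting program nor the way peaks were combined. Libraries for H3K4me3 and IgG were not used here, and no background was subtracted.

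Reads in peaks numbered 5495414 to 6196455 in knockout and 5141856 to 7026388 in control libraries. All 22731 peaks were fitted with edgeR 4.0.16 in R 4.3.3 (TMM, filterByExpr, quasi-likelihood test with group as the only term, two-sided, Benjamini-Hochberg adjustment over all peaks, calls under 0.05). The coefficient of variation between libraries from the common dispersion was 11.4%. Standard errors came from the quasi-likelihood F statistic. Spearman's rho was computed with SciPy 1.17.1. The fit was tested on simulated data. Pairs of libraries within a group differed by more than counting noise (halved counts gave a chi-square of 1.53 to 1.84 per degree of freedom). This scaling hides any change common to the whole peak list.

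The window and the gene ends came with the choice of the locus, and the members, lists and tests were chosen with earlier results of these data known. The strand of the gene is general knowledge, since the gene table gives none. Zones hold the peaks whose midpoint lies in them. Values are given per library for the peaks nearest each gene end, the 6 strongest, the 4 with the largest absolute log2 fold change and those at the window borders. Lists of invadopodia genes and of cell type markers, planned for an mm9 annotation, were not run. The other settings tried were trended offsets (loess span of 0.3), other scaling factors, DESeq2 1.42.0, other filters, halved counts, a replicate block, an adjusted p under 0.01, each library left out, other zones and, chosen after seeing the data, a fit without chromosome 5.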

Additional observations from a re-analysis of the deposited data

How the results depend on the processing

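Over 17 alternatives the peaks of the Sh3pxd2a window called higher numbered 11 to 13, and the 1 called lower stayed at 1. The count was 11 with trended offsets and without control replicate 3, where peaks 7 and 10 lost their call, and also at an adjusted p under 0.01. It was 12 without control replicate 1 and without knockout replicate 1, where peak 10 lost its call. With the number as a replicate block it was 13, as without it. The labels do not say that numbers pair the libraries, and deviations of same-numbered libraries from their group means correlated at only 0.00591 to 0.0668, with not every library closest to its own number. The log2 ratio of the window sum, 0.58, stayed within 0.56 to 0.59 across 13 alternatives, including scaling to the other peaks of chromosome 19 and leaving out chromosome 5, and all 73 values of window and zone ratios moved by less than the spread between libraries. Named peaks gave 187 values, of which 186 kept direction and call. The exception was peak 15, near 0 and not called, whose log2 fold change was 0.040 without control replicate 3, and -0.10 to 0.040 over the left-out libraries. In 5 zones of equal length (68 kb), the second zone took 33.2% of reads in knockout and 21.8% in control libraries, and the third took 30.3% and 25.5%, because peak 9 passes from one to the other; the remaining zones held the same peaks. The planned strand from the reference table could not be used. With 3 libraries a group and as few as 44 reads in a peak, single weak peaks such as 7, 10, 14 and 16 had standard errors of 0.25 to 0.30.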
